A study of Mus musculus with 12 samples.

Results

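The MYC family is described here by 7 rows of the count matrices: the human MYCN transgene, listed as H_MYCN, and the mouse genes Mycn, Myc, Mycl, Max, Mnt and Mga. They were taken by symbol, 1 row each, out of 32286 features. Superior mesenteric ganglia (SMG), the sympathetic ganglia in which tumors of this mouse line arise, of 12 mice were dissociated and run on the Chromium 3' v1 platform for droplet scRNA-seq. The mice were of the strain 129+Ter/SvJcl. The groups were 1 wild-type (WT) mouse and 10 hemizygous Th-MYCN+/- mice at 3 weeks of age, called samples #1 to #10 after the labels, and 1 Th-MYCN+/- mouse at 6 weeks. The transgene carries human MYCN behind the rat promoter of tyrosine hydroxylase (Th), so that it is meant to be active in catecholaminergic cells. The 6-week-old mouse was chosen in the study for a tumor visible after dissection. Each of these 2 single-mouse groups has no replicate error, and their values are given beside the 10 mice without a test.

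MYC, MYCN and MYCL are transcription factors of the basic helix-loop-helix leucine zipper class. They bind DNA as pairs with MAX, preferably at E-boxes, and drive genes of ribosome production, metabolism and cell division. MNT and MGA also pair with MAX and compete with the MYC proteins. MNT recruits repressors of transcription, and MGA is a scaffold of a Polycomb-type repressor complex. MYCN is the member known for neuroblastoma, where extra copies mark aggressive tumors, and it is active in the developing sympathetic lineage from which those tumors come.

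The transgene was the only human feature (ENSG00000134323), and its inserted sequence and site are not analysed here. In GRCm38, Mycn (ENSMUSG00000037169) lies on the minus strand at chr12:12936093-12941914, and Max (ENSMUSG00000059436) on the same strand at chr12:76937269-76962201. On the plus strand lie Myc (ENSMUSG00000022346) at chr15:61985391-61990374, Mycl (ENSMUSG00000028654) at chr4:122995652-123002485, Mnt (ENSMUSG00000000282) at chr11:74830920-74845725 and Mga (ENSMUSG00000033943) at chr2:119897228-119969581. None of the 6 shares exon bases with another annotated gene.

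Of these 6 mouse genes, 5 were found in the RefSeq promoter table (GRCm38.p6), in which the 250 bases before each start site were searched on both strands. The motifs were the E-box CACGTG of MYC and MAX, the E2F motif TTTGGCGC with its reverse complement GCGCCAAA, and the cyclic AMP response element TGACGTCA. The motifs were chosen with knowledge of these genes, and of all 32851 promoters 6.02% held the E-box, 0.417% the E2F motif and 1.55% the cyclic AMP response element. Mycn held the E2F motif at 2 places, and Mnt held the E-box once. Mycl, Max and Mga held none of the 3 motifs in this window, which for Mycl begins inside an annotated exon. Mouse Th, the endogenous counterpart of the transgene's promoter, held the cyclic AMP response element. The stretches before the annotated exons are printed 5′ to 3′ with the motif in capitals, for the genes that held one. They are Mycn (chr12:12941915-12942086, minus strand), Mnt (chr11:74830674-74830919, plus strand) and Th (chr7:142900015-142900245, minus strand).
Mycn: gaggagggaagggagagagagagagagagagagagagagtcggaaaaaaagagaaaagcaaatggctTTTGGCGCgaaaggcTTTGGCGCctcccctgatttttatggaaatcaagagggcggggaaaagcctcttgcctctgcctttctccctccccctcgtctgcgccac
Mnt: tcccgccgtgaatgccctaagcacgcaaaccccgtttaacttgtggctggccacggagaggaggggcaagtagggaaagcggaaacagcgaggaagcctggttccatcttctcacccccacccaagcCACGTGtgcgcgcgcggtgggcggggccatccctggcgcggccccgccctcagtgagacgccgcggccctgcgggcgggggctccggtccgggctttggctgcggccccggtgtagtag
Th: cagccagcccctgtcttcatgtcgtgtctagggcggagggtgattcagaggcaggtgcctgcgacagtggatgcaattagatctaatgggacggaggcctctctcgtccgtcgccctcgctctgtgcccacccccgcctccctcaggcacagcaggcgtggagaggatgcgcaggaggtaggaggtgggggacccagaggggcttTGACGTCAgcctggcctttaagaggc

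The libraries held between 1147771 (WT) and 6388765 unique molecular identifiers (UMIs, 1 for each captured RNA molecule), and 12029 barcodes passed as cells. By markers, 5275 were neuroblast-like, 2696 ganglion-like (sympathetic neurons) and 2925 Schwann-like, with 516 endothelial-like and 241 macrophage-like cells. Of the others, 165 were myofibroblast-like, 43 NKT-like and 141 fibroblast-like, and 27 stayed unnamed. The 7 members were left out of the clustering. CPM are counts per 1000000 UMIs of the class in that mouse. They are compared between cells for 1 gene and not between genes. Sample #2 stood apart: 1509 of its 1846 cells were ganglion-like and 10 Schwann-like, and 38.8% of its UMIs were in cells, against 74.1% to 87.1% in the other 3-week-old Th-MYCN+/- mice. The WT mouse had 35 neuroblast-like cells with a median of 316 UMIs, and their Th level was 2270 CPM against 192 to 610 CPM in the 10 mice, so that they are shown without being taken as the same population.

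H_MYCN was a transcript of the neuroblast-like cells. Its level there was 95.2 CPM in the lowest of the 10 mice (#2), 287 CPM in the median and 499 CPM in the highest (#4), with a mean of 301 ± 144 CPM (SD, n = 10). The spread between mice was wide, with #10 (96.1 CPM, Poisson 95% interval 85.2 to 108) as low as #2 and with #8 (483 CPM) close to #4. The 6-week-old mouse lay inside that range at 351 CPM (328 to 376). The library of the WT mouse held 0 H_MYCN UMIs of 1147771, which allows up to 2.61 CPM (3 counts), and each of the 11 Th-MYCN+/- libraries held H_MYCN, as the labels have it.

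In ganglion-like cells of the 10 mice, H_MYCN ran from 0 CPM in 4 mice to 9.24 CPM (#3), with a mean of 2.28 ± 2.96 CPM. This was 16 UMIs in all, no more than 1 in any cell. The values of the 2 classes did not overlap, and H_MYCN was higher in neuroblast-like cells by 6.67 ± 0.37 on the log2 scale (SE, adjusted p = 5.24e-12, edgeR quasi-likelihood test paired by mouse, higher in 10 of 10 mice). In Schwann-like cells, H_MYCN was at 0 CPM in 4 mice and at a median of 2.85 CPM. It reached 144 CPM in #6, where all 17 UMIs came from 1 cell with 27462 UMIs, and this value lies above the lowest neuroblast-like ones (#2 and #10). Neuroblast-like cells were higher than Schwann-like cells by 4.22 ± 0.42 on the log2 scale (adjusted p = 6.77e-09, edgeR, 10 of 10 mice). The size of both differences moved with the libraries and the clustering. Against Schwann-like cells it was 5.25 without #6, 5.20 with DESeq2 and 6.52 with clusters made from log-normalized counts, and against ganglion-like cells it was 5.96 without #4 and 7.40 with those clusters. Without the cell richest in H_MYCN in each mouse, the mean in Schwann-like cells was 0.632 CPM and that in neuroblast-like cells 289 CPM.

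Other classes carried little of the transgene. In the 10 mice there were 6 UMIs in endothelial-like cells (9.24 CPM, 3.39 to 20.1), 1 in macrophage-like cells, and 0 in myofibroblast-like and fibroblast-like cells. After neuroblast-like cells, the order of the classes by mean level was Schwann-like, endothelial-like (12.4 ± 26.4 CPM), ganglion-like and macrophage-like, and the ranges of these neighbours overlap, with 4, 7, 4 and 9 of the 10 mice at 0 CPM. The place of Schwann-like cells in this order rests on single cells: without the richest cell of each mouse their mean was 0.632 CPM and that of ganglion-like cells 0.888 CPM. Barcodes with at most 100 UMIs, which stand for free RNA in the suspension, held H_MYCN at 18.4 to 278 CPM in the Th-MYCN+/- mice. This was below the level of the neuroblast-like cells of the same mouse in 10 of 10 mice and above that of its ganglion-like and Schwann-like cells in 10 of 10.

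The transgene was also counted by cells. After thinning each cell to 500 UMIs, 493 of 3719 neuroblast-like cells of the 10 mice had an H_MYCN UMI (13.3%, Clopper-Pearson 95% interval 12.2% to 14.4%, and 12.3% ± 6.14 as the mean over mice). The shares were 3 of 2036 in ganglion-like cells (0.147%, and 0.684% ± 1.31 as the mean over mice) and 4 of 1829 in Schwann-like cells (0.219%, and 0.186% ± 0.334 over 9 mice), with 0 of 173 in macrophage-like cells, which allows up to 1.73%. Mouse by mouse, the highest ganglion-like share (4.00%) lay above the lowest neuroblast-like one (3.45%), and the highest Schwann-like share (0.962%) lay below it. Without thinning the shares were 41%, 0.646% and 0.359%, at median depths of 2556, 1151 and 971.5 UMIs in neuroblast-like, ganglion-like and Schwann-like cells.

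**Figure D1:**
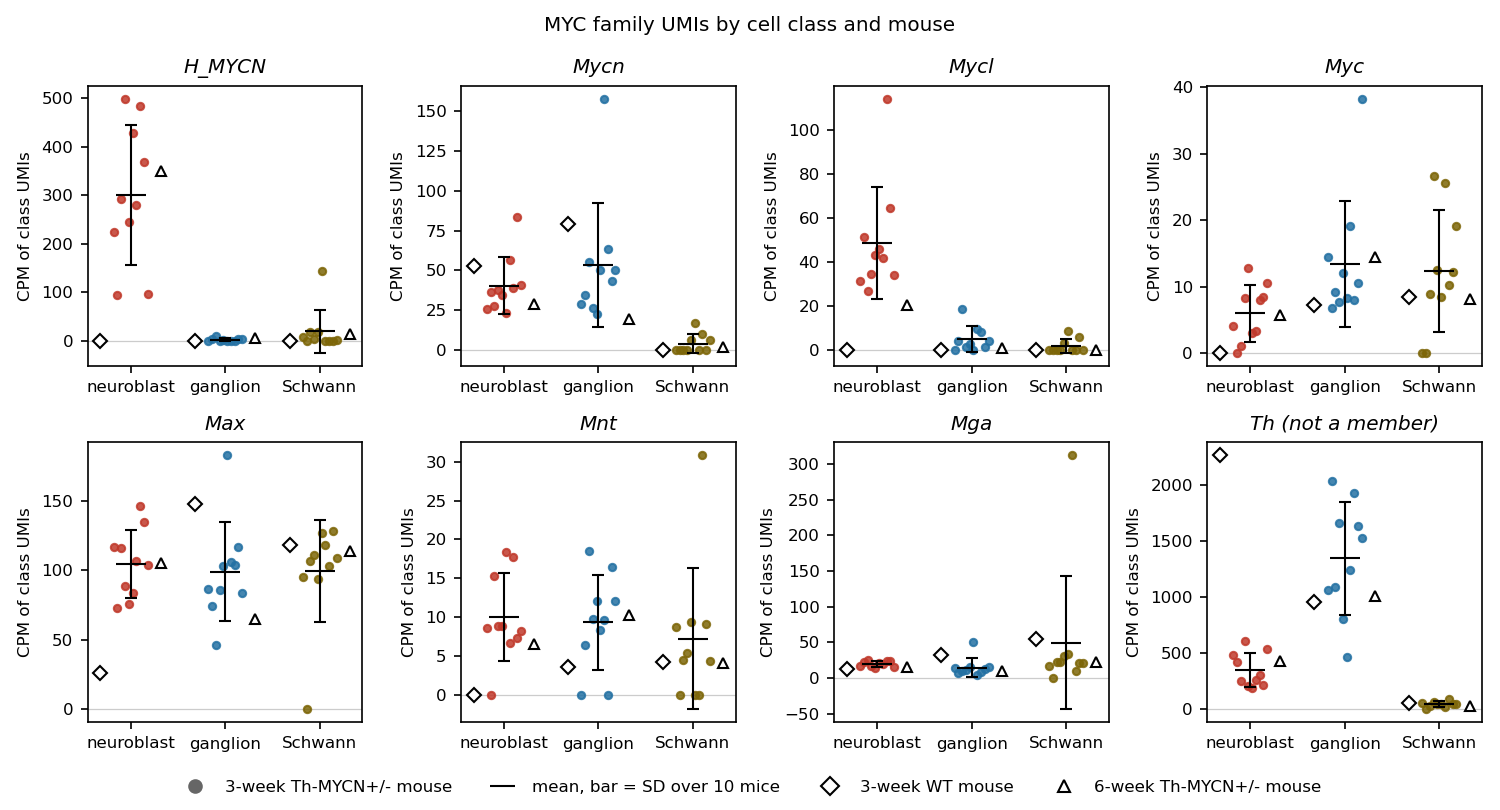
CPM of class UMIs (linear axes) of the 7 members and of Th in neuroblast-like, ganglion-like and Schwann-like cells. Dots are the 10 Th-MYCN+/- mice at 3 weeks with mean and SD, the open diamond is the WT mouse and the open triangle the 6-week-old mouse. H_MYCN lies between 95.2 and 499 CPM in neuroblast-like cells and at or below 9.24 CPM in ganglion-like cells, while the means of Max are 105, 98.8 and 99.1 CPM.

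Endogenous Th ran the other way. It encodes the rate-limiting enzyme of catecholamine synthesis and was among the markers that named the ganglion-like class, so that its level is a description. Th was at 192 CPM (#6) to 610 CPM (#4) in neuroblast-like cells, with a mean of 349 ± 153 CPM. This was below the level in barcodes with at most 100 UMIs of the same mouse (205 to 910 CPM) in 9 of 10 mice, and the part of free RNA in it was not tested. In ganglion-like cells it was at 467 CPM (#6) to 2040 CPM (#2), with a mean of 1350 ± 501 CPM. Each of the 10 mice had more Th and less H_MYCN in ganglion-like than in neuroblast-like cells, and its ganglion-like cells held more Th than its barcodes with at most 100 UMIs. The 6-week-old mouse had the same order, with Th at 430 CPM and 1010 CPM and H_MYCN at 351 CPM and 5.17 CPM.

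**Figure D2:**
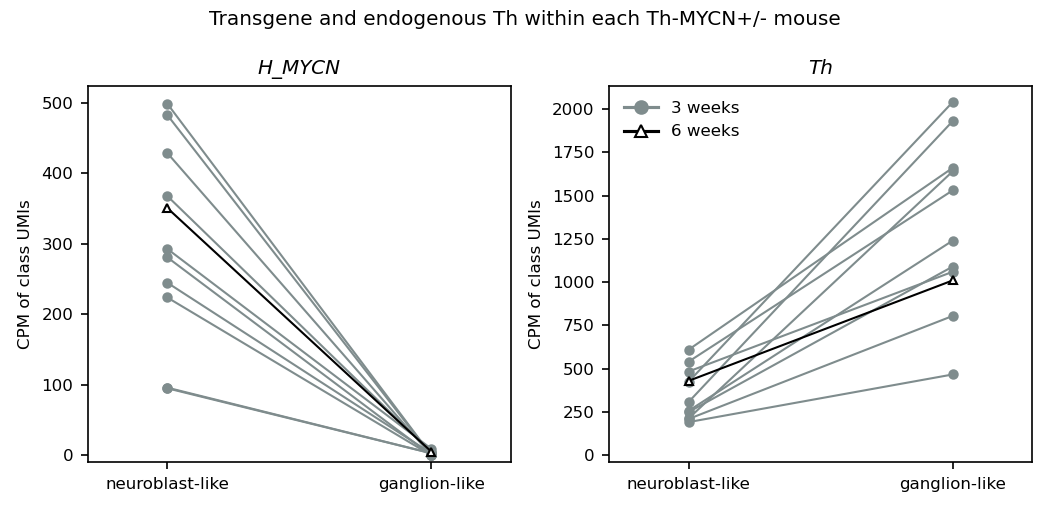
H_MYCN (left) and endogenous Th (right) in neuroblast-like and ganglion-like cells, in CPM of class UMIs on linear axes, with 1 line for each Th-MYCN+/- mouse (grey, 3 weeks, n = 10, and black triangles, the 6-week-old mouse). All 11 lines fall for H_MYCN and rise for Th.

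Among the other genes, those whose pattern over 42 sums of mouse and class was most like that of H_MYCN were Tlx3 (r = 0.953), Nuf2 (0.948), Tox3 (0.948), Kcnmb2 (0.946) and Insm1 (0.943), out of 9199 genes compared on log2(CPM + 10). These sums share libraries and classes, so that the values only describe the pattern. Insm1 and Tlx3 encode transcription factors of developing neurons, and Nuf2 a kinetochore protein of dividing cells.

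Within the neuroblast-like class, 3 clusters held H_MYCN at different levels. It was 214 ± 106 CPM (SD, n = 10) in the cluster of shallow cells (median 501 UMIs, 2308 cells), 287 ± 118 CPM in a cluster led by Mki67, Top2a and Plk1 (4893 UMIs, 1723 cells), and 366 ± 232 CPM in a cluster led by Cartpt and Nhlh2 (4007 UMIs, 1244 cells). The shallow cluster was below the Mki67 cluster in 10 of 10 mice and below the Cartpt cluster in 9 of 10. The Mki67 cluster was below the Cartpt cluster in 8 of 10. Depth moved with these clusters, and its part in the differences was not tested.

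Mycn, the endogenous counterpart of the transgene, was present in both neural classes and nearly missing from Schwann-like cells. In neuroblast-like cells it was at 23 CPM (#6), 37.0 CPM (median) and 83.3 CPM (#9), with a mean of 40.5 ± 17.8 CPM. In ganglion-like cells it was at 22.7 CPM (#5), 46.7 CPM and 158 CPM (#7), with a mean of 53.4 ± 39.3 CPM. The ranges overlap, and the difference of -0.17 ± 0.23 on the log2 scale was not called (adjusted p = 0.527, edgeR, higher in 4 of 10 mice). The highest values rested on few cells: in #7, 1 ganglion-like cell with 1933 UMIs held 22 of 33 Mycn UMIs, and in #9, 1 neuroblast-like cell with 1842 UMIs held 34 of 148. Without the richest cell of each mouse, the means were 36.1 ± 13.2 CPM in neuroblast-like and 34.8 ± 13.6 CPM in ganglion-like cells.

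Mycn was above its level in barcodes with at most 100 UMIs of the same mouse in 9 of 10 mice in neuroblast-like and in 10 of 10 in ganglion-like cells. In Schwann-like cells, Mycn was at 0 CPM in 6 mice and at most 16.9 CPM (#6), 8 UMIs in all. Neuroblast-like and ganglion-like cells were both above Schwann-like cells in 10 of 10 mice, with no overlap between the groups of values. For neuroblast-like cells the difference was 3.28 ± 0.48 on the log2 scale (adjusted p = 2.14e-06, edgeR), and 3.94 with clusters made from log-normalized counts. For ganglion-like cells Mycn fell below the filter on low counts, and with no filter the difference was 3.82 ± 0.43 (adjusted p = 3.54e-18, edgeR). The WT mouse had Mycn at 79.5 CPM (49.8 to 120) in ganglion-like cells, below #7 and above the other 9 mice, and 0 UMIs in Schwann-like cells. Without the richest ganglion-like cell of each mouse, it was at 73.3 CPM and the highest of the 10 mice at 58.8 CPM (#3), a difference that has no test with 1 WT mouse. The 6-week-old mouse had 28.7 CPM (22.4 to 36.3) in neuroblast-like cells, inside the range, and 19.6 CPM (11.8 to 30.7) in ganglion-like cells, below the lowest of the 10 mice, whose interval (13.2 to 36.3) it overlaps.

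The genes most like Mycn over the same 42 sums were Prkcz (r = 0.911), Tmeff1 (0.898), Atcay (0.886), Srrm3 (0.880) and Tmeff2 (0.876). None of them was among the genes most like H_MYCN, and each of the values is a description as above.

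Mycl, the family member known from small cell lung cancer, followed the neuroblast-like cells as H_MYCN did. It was at 26.6 CPM (#3), 42.5 CPM (median) and 114 CPM (#8) there, with a mean of 48.7 ± 25.3 CPM. In ganglion-like cells it was at 0 CPM in 2 mice and at most 18.5 CPM (#3, 2 UMIs), with a mean of 4.94 ± 5.73 CPM, and the 2 groups of values did not overlap. The difference was 3.66 ± 0.34 on the log2 scale (adjusted p = 6.07e-09, edgeR, 10 of 10 mice). In Schwann-like cells Mycl was at 0 CPM in 7 mice, and the difference was 4.30 ± 0.44 (adjusted p = 1.06e-08, edgeR, 10 of 10 mice). Without #9 the latter was 4.90, and with clusters made from log-normalized counts the differences were 4.35 and 5.35. Mycl was above the barcodes with at most 100 UMIs of the same mouse in 9 of 10 mice in neuroblast-like cells and in 1 of 10 in ganglion-like cells. In #8, 1 neuroblast-like cell with 4440 UMIs held 64 of 243 Mycl UMIs, and without that cell the level was 84.0 CPM. The WT mouse had 0 Mycl UMIs in all 3 classes, which allows up to 39.5 CPM in its neuroblast-like and 10.8 CPM in its ganglion-like cells (3 counts). The 6-week-old mouse was at 20.5 CPM (15.2 to 27.0) in neuroblast-like cells, below the 10 mice, although its interval overlaps that of #3 (17.4 to 39.0).

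Myc was scarce in the neural classes. It was at 0 to 12.8 CPM in neuroblast-like cells (mean 5.95 ± 4.24), 6.83 to 38.3 CPM in ganglion-like cells (13.4 ± 9.51) and 0 to 26.7 CPM in Schwann-like cells (12.4 ± 9.22). Its value in neuroblast-like cells was below that in ganglion-like cells in 8 of 10 mice and below that in Schwann-like cells in 7 of 10. Myc did not pass the filter on low counts. With no filter it was lower in neuroblast-like cells by -0.82 ± 0.35 against ganglion-like (adjusted p = 0.0486) and -0.93 ± 0.37 against Schwann-like cells (adjusted p = 0.0295, edgeR). The highest ganglion-like value, in #10, came from 1 cell with 30 of 38 Myc UMIs, and without that cell it was 8.31 CPM. Without the richest cell of each mouse, the means were 4.99 ± 3.95 CPM in neuroblast-like and 5.00 ± 4.44 CPM in ganglion-like cells, and the test was not run without these cells. The highest mean was in endothelial-like cells (37.8 ± 38.9 CPM, 27 UMIs), where 10 UMIs came from 1 cell of #4. Macrophage-like (31.2 ± 46.9 CPM) and myofibroblast-like cells (34.8 ± 65.7 CPM, 9 mice) did not differ from it beyond their spread.

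Max is the common partner of the family, and its values overlapped between the classes. It was at 73.2 to 146 CPM in neuroblast-like cells (mean 105 ± 24.5), 46.2 to 183 CPM in ganglion-like cells (98.8 ± 35.7) and, without #2, 110 ± 12.3 CPM in Schwann-like cells (n = 9). Its 0 CPM in #2 stands on 10 Schwann-like cells with 5378 UMIs in all. Barcodes with at most 100 UMIs held Max at 64.4 to 127 CPM, and each of the 3 classes lay above those of the same mouse in 7 of 10 mice, and the part of free RNA in these levels was not tested. No difference was called in edgeR, with 0.07 ± 0.18 against ganglion-like cells (adjusted p = 0.747), -0.36 ± 0.17 against Schwann-like cells (adjusted p = 0.0619), and -0.29 ± 0.18 between ganglion-like and Schwann-like cells (adjusted p = 0.169). In #8, 1 neuroblast-like cell with 4463 UMIs held 58 of 311 Max UMIs, and without #8 Max was called lower than in Schwann-like cells (-0.42, adjusted p = 0.0395, edgeR). The sign against Schwann-like cells turned with no filter on low counts (0.11, adjusted p = 0.71). The 6-week-old mouse, at 105 CPM, 65.1 CPM and 114 CPM in the 3 classes, and the WT mouse, at 148 CPM in ganglion-like and 118 CPM in Schwann-like cells, lay inside the ranges of the 10 mice.

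Mnt and Mga, the partners of MAX that repress transcription, were low. Mnt was at 9.99 ± 5.63 CPM in neuroblast-like cells, 9.30 ± 6.09 CPM in ganglion-like cells and 7.22 ± 9.12 CPM in Schwann-like cells, and did not pass the filter. With no filter its differences were -0.14 ± 0.33 against ganglion-like (adjusted p = 0.772) and 0.69 ± 0.41 against Schwann-like cells (adjusted p = 0.175, edgeR). Mga was steady in neuroblast-like cells, at 13.8 to 25.6 CPM (mean 20 ± 4.13), and at 4.80 to 50 CPM in ganglion-like cells (14.8 ± 12.9), with a difference of 0.44 ± 0.28 (adjusted p = 0.166, edgeR, 8 of 10 mice). In the fit, Mga was lower in neuroblast-like than in Schwann-like cells by -1.15 ± 0.37 (adjusted p = 0.00921, edgeR, lower in 8 of 10 mice on the scale of the fit and in 6 of 10 on class totals). This call rested on #7, whose Schwann-like cells stood at 313 CPM because 1 cell with 5507 UMIs held 60 of 61 Mga UMIs. Without #7 the difference was -0.59 (adjusted p = 0.0559), and without the richest cell of each mouse the mean in Schwann-like cells was 14.1 ± 10.0 CPM.

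In the fit of neuroblast-like against ganglion-like cells, 5 of the 7 members passed the filter and 2 were called (H_MYCN and Mycl), where 66.0% of the 7774 genes tested were called (33.9% higher and 32.1% lower). Against Schwann-like cells 4 of 5 were called (H_MYCN, Mycn and Mycl higher, Mga lower), where 67.0% of 5701 genes were (35.6% higher and 31.4% lower). Scaling by relative log expression moved the median of all genes there from 0.08 to 0.39, and the share of calls that were higher from 53.2% to 66.1%. H_MYCN, Mycn and Mycl stood above that median under both scalings. Between ganglion-like and Schwann-like cells, Max alone passed and 0 members were called, in edgeR and in DESeq2 and at an unadjusted p under 0.05, where 69.5% of 3215 genes were called (38.2% higher and 31.3% lower). Most genes differ between these classes, so that the counts say little about the family and each member is given by its size of change.

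**Figure D3:**
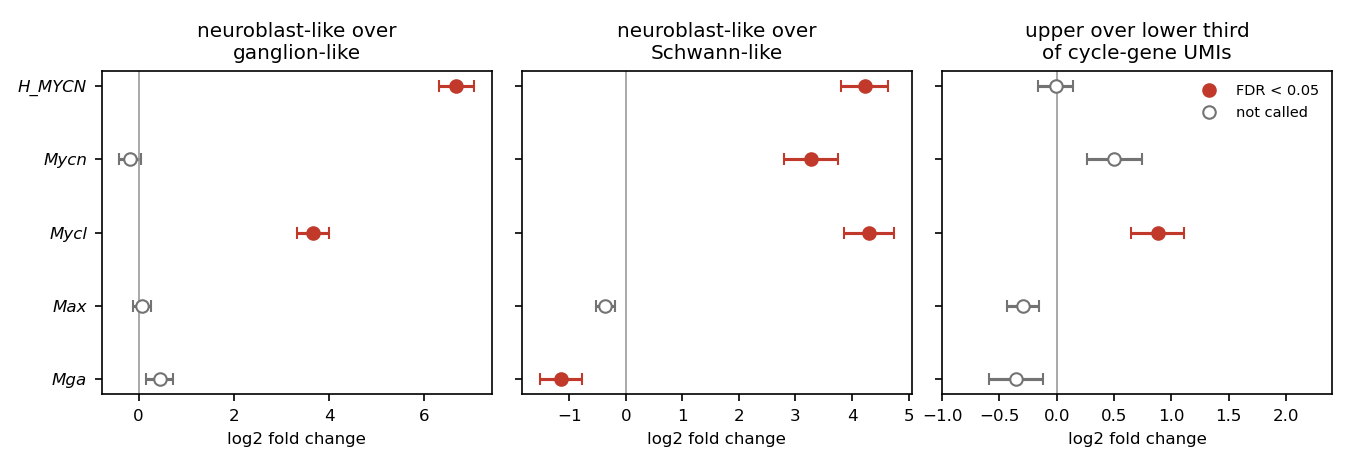
Log2 fold changes with SE (edgeR, paired by mouse) of the 5 members that passed the filter, for neuroblast-like over ganglion-like cells (10 mice), neuroblast-like over Schwann-like cells (10 mice), and the upper over the lower tercile of cycle-gene UMIs (9 mice). Filled red points passed an FDR of 0.05, open grey points did not, and the 3 panels have different axes. H_MYCN stands at 6.67, 4.22 and -0.01.

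Whether the family follows division was asked within the neuroblast-like cells. In each mouse, cells with at least 1000 UMIs were thinned to 1000 and ranked by their UMIs in 94 cycle genes. The upper and the lower tercile were then compared in 9 mice, since #2 had too few cells. The terciles held 1013 cells each, with a mean of 25.3 to 28.3 cycle UMIs per mouse in the upper and 1.78 to 6.00 in the lower. The upper tercile was deeper in 9 of 9 mice, with medians of 3148 to 6556 UMIs against 2858 to 5451.

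H_MYCN was not called between the terciles. It was at 61.9 CPM, 304 CPM and 599 CPM (lowest, median and highest of 9 mice) in the lower tercile and at 115 CPM, 314 CPM and 568 CPM in the upper, higher in 5 of 9 mice. The difference was -0.01 ± 0.15 on the log2 scale (adjusted p = 0.966, edgeR), and its sign turned between settings (0.01 with size factors by relative log expression). Th, in contrast, was at 297 to 1230 CPM in the lower and 79.2 to 224 CPM in the upper tercile, lower in 9 of 9 mice with no overlap, by -2.31 ± 0.21 (adjusted p = 4.07e-07, edgeR).

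Mycl rose with the cycle genes. It was at 16.4 CPM, 38.2 CPM and 53.9 CPM in the lower tercile and at 29.9 CPM, 57.9 CPM and 156 CPM in the upper, and the groups overlap. The difference was 0.88 ± 0.23 (adjusted p = 0.00685, edgeR, higher in 7 of 9 mice). Without #8, which holds the cell with 64 Mycl UMIs, it was 0.74 ± 0.24 (adjusted p = 0.0295). Mycn had a mean of 34.7 ± 17.0 CPM in the lower and 53.5 ± 32.3 CPM in the upper tercile, and its difference of 0.50 ± 0.24 was not called (adjusted p = 0.12, 7 of 9 mice). Mycn was called without #10 (0.71, adjusted p = 0.0297, edgeR) and not without #9. Its highest value in the upper tercile was in #9 (131 CPM), the mouse with the cell that held 34 Mycn UMIs. Max was at 115 ± 23.7 CPM in the lower and 96.3 ± 34.8 CPM in the upper tercile (-0.29 ± 0.14, adjusted p = 0.105, lower in 8 of 9 mice), and without #8, which holds the cell with 58 Max UMIs, it was called lower (-0.39, adjusted p = 0.0337). Mga had 23.9 ± 8.49 CPM and 18 ± 7.61 CPM (-0.36 ± 0.24, adjusted p = 0.259). Myc and Mnt did not pass the filter, at 8.55 ± 7.20 CPM and 5.05 ± 2.86 CPM for Myc and 12.4 ± 5.60 CPM and 10.8 ± 6.38 CPM for Mnt in the lower and the upper tercile. In all, 1 of 5 members was called, where 36.2% of 5798 genes were.

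**Figure D4:**
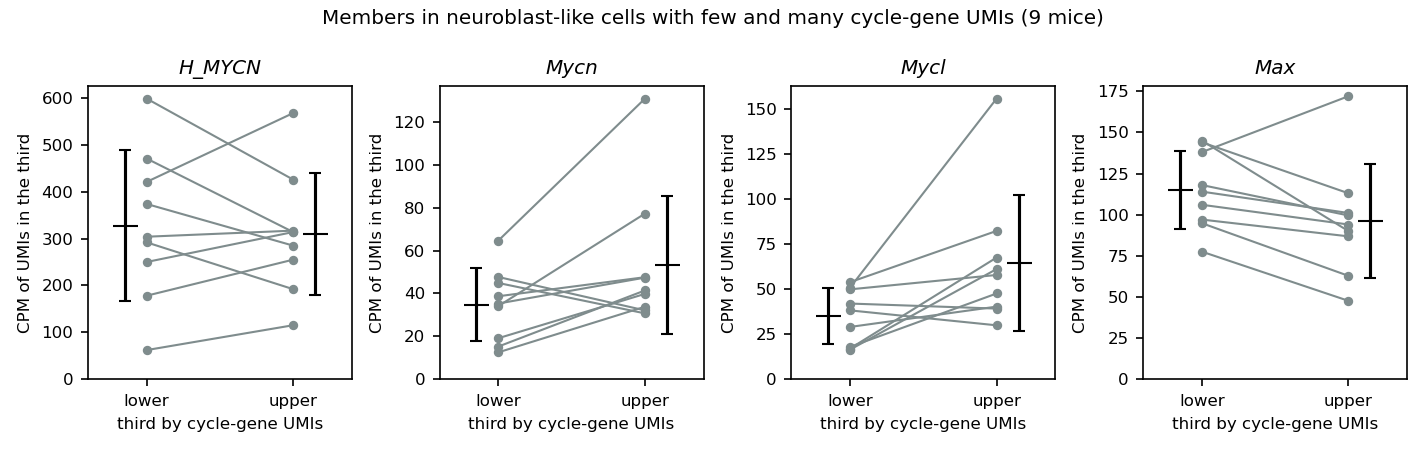
CPM of H_MYCN, Mycn, Mycl and Max in neuroblast-like cells of the lower and the upper tercile of cycle-gene UMIs, on linear axes from 0, with 1 line per 3-week-old Th-MYCN+/- mouse (n = 9) and black bars for mean and SD. Mycl is higher in the upper tercile in 7 of 9 mice and H_MYCN in 5 of 9, while Max is lower there in 8 of 9.

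The transgene and the endogenous gene were then compared cell by cell and mouse by mouse. Among neuroblast-like cells thinned to 1000 UMIs, a Mycn UMI was seen in 3.98% of cells with an H_MYCN UMI and in 3.25% of cells without one, as means over 9 mice with at least 20 cells on each side. The difference of 0.731 ± 2.32 percentage points (SD) was positive in 5 of 9 mice and not different from 0 (p = 0.344, exact two-sided sign-flip permutation test, smallest p possible 0.00391). These shares stand on 0 to 10 cells with both transcripts in a mouse.

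Across the 10 mice, the level of H_MYCN in neuroblast-like cells was related to none of the other 6 members after adjustment. On log2(CPM + 10), Mycn had r = 0.04 (rho = 0.05, adjusted p = 0.978 and 0.891, permutation tests with 100000 resamples, 6 pairs). The highest was Mnt with r = 0.68 (p = 0.0366, adjusted p = 0.22) and rho = 0.60 (p = 0.0731, adjusted p = 0.439, permutation tests), the only raw p under 0.05 in the 6 pairs. For Mycl r was 0.32, for Max 0.36, for Mga 0.29 and for Myc 0.19, with adjusted p between 0.608 and 0.71 (permutation tests). Without #2 and #10, the mice farthest from the median of H_MYCN, the order changed: r was 0.52 for Mycl, 0.45 for Mnt, 0.35 for Mga, 0.16 for Myc and 0.12 for both Max and Mycn.

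The wider network of the family was read from lists of its partners, cofactors and targets. These genes took part in the clustering, and Npm1, Cdk4, Ndrg4 and Th were also among the markers that named classes, so that their values between classes are descriptions. Between the terciles they are tests of whether a gene follows the ranked cycle genes, apart from Aurka, which was in the ranking. They do not test a link to MYC. For genes that act in division themselves, such as Plk1, a rise there is built into the ranking and is a description. There, 17.0% of all genes were called higher and 19.2% lower, with a median log2 difference of -0.04.

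Of the other partners of MAX and its relative MLX, 4 of 7 could be tested. Mxd3, a MAX partner of the MXD family, was at 56.4 ± 12.4 CPM in neuroblast-like and 1.16 ± 2.88 CPM in ganglion-like cells. Within neuroblast-like cells it was at 0 to 29.9 CPM in the lower and 72.5 to 154 CPM in the upper tercile, with no overlap, and rose by 5.08 ± 0.46 (adjusted p = 4.84e-07, edgeR, 9 of 9 mice). Its relative Mxd4 fell (-0.90 ± 0.27, adjusted p = 0.0151). Mxi1, which was higher in neuroblast-like than in ganglion-like (1.35) and lower than in Schwann-like cells (-2.17), as Mxd4 was against the latter (-2.77), was not called between terciles (0.43, adjusted p = 0.138), nor was Mlx (-0.64, adjusted p = 0.184).

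Of 11 cofactors tested, 2 rose in the upper tercile and 9 were not called. Actl6a, a subunit of chromatin remodellers, rose by 1.14 ± 0.16 (adjusted p = 4.28e-05) and the helicase Ruvbl2 by 0.93 ± 0.16 (adjusted p = 0.000269), while Ruvbl1 (0.28, adjusted p = 0.14) was not called. The median over the 11 was 0.28. These 3 genes were higher in neuroblast-like than in ganglion-like cells, by 1.77 (Ruvbl1) to 2.97 (Actl6a) on the log2 scale.

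Of 8 genes for the stability of MYC proteins outside the ranking, 2 rose and 6 were not called. Plk1, a mitotic kinase, rose by 6.20 ± 0.37 (adjusted p = 1.72e-08) and Cip2a, an inhibitor of the phosphatase PP2A that protects MYC, by 3.16 ± 0.41 (adjusted p = 1.99e-05). Aurka, whose kinase stabilizes MYCN protein, was at 137 CPM in neuroblast-like and 5.55 CPM in ganglion-like cells on the scale of the fit. Not called were Ppp2ca (0.15, adjusted p = 0.209) and Gsk3b (-0.32, adjusted p = 0.163).

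In the repressor complex around MGA, 5 of 10 genes rose in the upper tercile and 0 fell, with a median of 0.59. They were L3mbtl2 (0.98, adjusted p = 0.00176), Tfdp1 (0.88, adjusted p = 0.000493), Hdac1 (0.76, adjusted p = 0.000731), Cbx3 (0.74, adjusted p = 0.00271) and Cbx1 (0.68, adjusted p = 0.0014). Hdac2 was not called (0.09, adjusted p = 0.556), and Mga itself was not either. Tfdp1, Hdac1 and Hdac2 also serve other complexes. Between neuroblast-like and ganglion-like cells the median of the 10 genes was 2.02, against 0.04 over all genes. Against Schwann-like cells E2f6 (1.15), Tfdp1 (1.67), Cbx1 (0.77) and Hdac2 (1.62) were higher and Ring1 (-1.5) lower.

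Genes known to be raised by MYC were high in the neuroblast-like cells, with a median of 1.54 over 22 tested genes against ganglion-like and 1.65 over 20 against Schwann-like cells, where all genes had medians of 0.04 and 0.08. The translation factor Eif4a1 was at 3660 CPM against 750 CPM in ganglion-like cells, the nucleolar protein gene Npm1 at 1270 CPM against 275 CPM, the cycle kinase gene Cdk4 at 965 CPM against 99.4 CPM and Nme1 at 1480 CPM against 1030 CPM on the scale of the fit. Ldha, of lactate production, was lower (-0.51). Between the terciles, 7 of 21 rose, 0 fell and 14 were not called, with a median of 0.24. Cdk4 (0.65, adjusted p = 0.00282) and Eif4a1 (0.28, adjusted p = 0.0432) rose, while Npm1 (0.28, adjusted p = 0.0582) and Nme1 (-0.18, adjusted p = 0.148) were not called.

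Genes known to be lowered by MYC had a median of -2.65 over 10 tested genes against ganglion-like cells and -0.14 over 7 against Schwann-like cells, where Ndrg2 (-4.78), Ndrg1 (-3.66) and Cdkn1a (-1.71) were lower and Ndrg4 (1.32) higher. Against ganglion-like cells 7 of the 10 were lower, 1 was higher and 2 were not called. Ndrg4 was at 105 CPM against 1040 CPM and Ndrg2 at 91.5 CPM against 339 CPM. The higher gene was Cdkn1b, a cycle inhibitor, at 44.5 CPM against 12.5 CPM (1.77, 10 of 10 mice). Between the terciles the list split. The cycle inhibitor genes Cdkn1a (0.89, adjusted p = 0.0139) and Cdkn1b (0.80, adjusted p = 0.00905) rose with Ndrg1 (0.61, adjusted p = 0.0181), and Ndrg2 (-2.43, adjusted p = 1.25e-06) and Ndrg4 (-2.30, adjusted p = 0.000432) fell.

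Of 6 tested genes of Th and its regulators, 4 fell in the upper tercile. Phox2a (-1.77, adjusted p = 1.05e-07), Gata2 (-0.98, adjusted p = 1.07e-05) and Hand2 (-0.85, adjusted p = 0.00181), transcription factors of the sympathetic lineage, fell with Th. Between neuroblast-like and ganglion-like cells, Hand2 (-1.69), Phox2a (-0.57) and Gata2 (-0.52) were lower with Th (-1.93). Gata3 was higher (0.60) between the classes and not called between the terciles (-0.32, adjusted p = 0.114). Against Schwann-like cells all 6 were higher, by 2.02 (Hand2) to 4.24 (Gata2).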

How the data were processed

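Counts of UMIs per gene and barcode were deposited without normalization or cell selection. The authors made them with Cell Ranger (3.0.2 per the file headers) on mm10 with human MYCN added, with an annotation release not given in the sources used here. Cells were called by the EmptyDrops method (FDR 0.01, 10000 draws, empty profile from barcodes up to 100 UMIs, tested on simulated data). Cells with at least 200 genes, at most 10% mitochondrial and at most 60% ribosomal UMIs were kept. No doublet caller was run, and 93 barcodes occurred in cells of more than 1 library. Clustering without the 7 members used Seurat 5.3.0 with sctransform 0.4.2 (2000 genes, 30 components, resolution 0.5, R 4.3.3). A cluster was named where at least 50% of a marker list and 3 markers had a mean CPM 1.5 times that of all other cells and were seen in 10% of its cells. These limits were set after the clusters were seen.

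For each mouse and class of at least 10 cells the UMIs were summed. edgeR 4.0.16 was then used for the filter on low counts (filterByExpr), TMM scaling and quasi-likelihood tests that hold the mouse as a block, with Benjamini-Hochberg adjustment over all genes and an FDR of 0.05. The test was checked on simulated data. Both sums of a mouse come from 1 library. The correlation of their deviations from the class means was -0.0121 to 0.359 for neuroblast-like and ganglion-like cells and 0.121 to 0.544 for the terciles. CPM of list genes other than Mxd3 and Th are on the TMM scale, all others on class totals. Alternatives included DESeq2 1.42.0, and levels without the richest cell of each mouse were added after the data were seen. Other steps used Python 3.11.15, numpy 2.4.6, scipy 1.17.1, pandas 2.3.3 and matplotlib 3.10.9. Intervals are 95%, cover counting error only, and a count of 0 is given the limit of 3 counts. Depth was 1147771 to 6388765 UMIs per library and the median per cell 555.5 to 2367 UMIs. Members, motifs and lists were chosen with earlier results of these data known. Named were all members, Th, the 4 genes of each list with the most UMIs in neuroblast-like cells, all called genes of a list with at most 5, and the 5 genes most like H_MYCN and Mycn. Some genes this rule names are not reported here. Ldha and the genes leading clusters were named after their values were seen.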

Additional observations from a re-analysis of the deposited data

Results flagged for a closer look

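Levels of the 7 members in 3 classes were screened for a highest or lowest mouse far from the rest. In 11 of 21 groups of 10 mice it lay beyond the 95% limit for 10 values. For normally distributed values chance gives about 1 in 20. Levels from few UMIs, with mice at 0 CPM, need not be distributed so, and the 11 are not set against that rate. Few cells were behind most of them. In neuroblast-like cells this was Mycl in #8 (114 CPM, with 64 of 243 UMIs in 1 cell). In ganglion-like cells they were H_MYCN in #3 (9.24 CPM, 1 UMI), Mycl in #3 (18.5 CPM, 2 UMIs), Mycn in #7 (158 CPM, with 22 of 33 UMIs in 1 cell), Myc in #10 (38.3 CPM, with 30 of 38 UMIs in 1 cell), Max in #6 (183 CPM, 22 UMIs) and Mga in #6 (50 CPM, 6 UMIs). In Schwann-like cells they were H_MYCN in #6 (144 CPM, 17 UMIs, all in 1 cell), Mga in #7 (313 CPM, with 60 of 61 UMIs in 1 cell), Mnt in #8 (30.9 CPM, 3 UMIs) and Max in #2 (0 CPM, in 10 cells).

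Barcodes with at most 100 UMIs gave the empty profile for cell calling and entered no test between classes or terciles. They held 479 H_MYCN UMIs in the 11 Th-MYCN+/- libraries, between 19 and 85 in each, against 0 in the WT library.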

How the results depend on the processing

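The 7 calls of a member kept their direction in all of the 123 alternatives that gave a value and lost the threshold in 4. All 4 concerned Mga against Schwann-like cells: with DESeq2 (-0.60), relative log expression (-0.83), log-normalized clustering (-0.24) and without #7 (-0.59). The replicate block changed no count of called members by over 1.5 times. With no replicate block Mga was also called against ganglion-like cells (3 members in place of 2, 0.59), as it was with sums of at least 30 cells (0.69) and without #6 (0.68). Leaving out 1 mouse each, chosen after seeing the data except for #2, gave 2 to 3 called members against ganglion-like cells, 2 to 5 against Schwann-like cells, 0 between ganglion-like and Schwann-like cells, and 1 to 2 between terciles. The 2 against Schwann-like cells came without #4, where Mycn and Mga no longer passed the filter, and Max was called without #8 (-0.42). With no filter on low counts, 3 members were called between ganglion-like and Schwann-like cells, with Mycn higher and H_MYCN (-1.77) and Mga (-1.18) lower, and 2 between terciles (Mycn with 0.59). Log-normalized clustering also gave 2 there (Mycn with 0.75).

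Signs that turned were all of values that were not called. Between terciles H_MYCN became 0.0189 with DESeq2, 0.0139 with relative log expression, 0.0669 with no filter, and 0.0767, 0.0718, 0.0785 and 0.0534 without #1, #3, #6 and #8, in a range from -0.101 to 0.0785 when 1 mouse was left out. Mycn against ganglion-like cells became 0.0424 without #7 (range -0.343 to 0.0424), Max -0.0135 without #3 (-0.0135 to 0.235), and Max against Schwann-like cells 0.109 with no filter. Co-detection became -0.453 percentage points at 500 UMIs, and r of H_MYCN and Myc -0.215 without #2. The level of H_MYCN in neuroblast-like cells stayed between 288 and 326 CPM. The cause of these changes was not tested, other than where the filter set them. Low counts limit Myc, Mnt and each class other than the 3 compared.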
